A study of Schizosaccharomyces pombe with 4 samples.

Results

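Nucleosomes are built from the core histones H2A, H2B, H3 and H4, and fission yeast (*Schizosaccharomyces pombe*) encodes them in 9 genes, to which *pht1* adds the variant H2A.Z. These 10 genes, taken by their identifiers, are the genes described here, out of 12684 features counted. They are the H3 genes *hht1* (SPAC1834.04), *hht2* (SPBC8D2.04) and *hht3* (SPBC1105.11c), the H4 genes *hhf1* (SPAC1834.03c), *hhf2* (SPBC8D2.03c) and *hhf3* (SPBC1105.12), the H2A genes *hta1* (SPCC622.08c) and *hta2* (SPAC19G12.06c), the only H2B gene *htb1* (SPCC622.09), and *pht1* (SPBC11B10.10c). RNA was taken from growing, vegetative haploid *h-* cells carrying the alleles *leu1-32* and *pat1-L95G::kanR*, which all 4 libraries share although their titles name wild type cells. Cells had been kept 2 days in EMM minimal medium at 30 °C. The fractions compared were total RNA depleted of ribosomal RNA and poly(A)+ RNA enriched on oligo(dT) beads, with n = 2 biological replicates each. The library kit, the read length and the instrument changed together with the fraction, so that their effects cannot be told apart.

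In animals most histone mRNAs of the S phase end in a stem-loop and carry no poly(A) tail, whereas yeast histone mRNAs are polyadenylated, so that both fractions can hold them. Core histone transcription peaks in S phase, and in fission yeast it is driven through a promoter element, the AACCCT box, on which the factors Ams2 and Teb1 act. The HIRA complex represses these genes outside S phase. H2A.Z differs in that the SWR1 complex exchanges it into nucleosomes already in place.

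Each library held between 25530272 and 30650533 counts. Poly(A)+ replicate 1 stood apart from the other libraries in the chaperone gene *ssa1*, which had 7502 and 6541 counts in total RNA, 57483 counts in poly(A)+ replicate 1 and 8420 counts in poly(A)+ replicate 2. The main comparisons are therefore also given without it. Genes of meiosis, which vegetative cells should keep low, had at most 117 counts in any library over the 5 genes looked up.

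The H3 and H4 genes form 3 divergent pairs, and *hta1* and *htb1* form a further pair, each transcribed away from a shared intergenic region, while *hta2* and *pht1* stand alone. Those regions were read from RefSeq assembly ASM294v3, whose gene starts and ends were identical to those in the count tables for all 10 genes. They are shown because every core histone gene shares one feature in them. The capitals mark the AACCCT box or its reverse complement AGGGTT. The 4 divergent regions are given on the plus strand and run from one gene start to the other, and for the lone genes the 150 bases upstream of the gene start are given on the strand of the gene.
hta1-htb1 (chrIII:1412182-1412358, plus strand): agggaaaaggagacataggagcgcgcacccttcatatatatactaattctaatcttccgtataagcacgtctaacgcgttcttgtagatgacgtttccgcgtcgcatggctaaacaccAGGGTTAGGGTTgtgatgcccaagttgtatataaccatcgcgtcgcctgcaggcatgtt
hhf1-hht1 (chrI:4699600-4699731, plus strand): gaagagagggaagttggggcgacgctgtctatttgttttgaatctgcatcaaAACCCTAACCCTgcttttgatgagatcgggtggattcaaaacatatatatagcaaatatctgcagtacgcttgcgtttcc
hhf2-hht2 (chrII:1364985-1365118, plus strand): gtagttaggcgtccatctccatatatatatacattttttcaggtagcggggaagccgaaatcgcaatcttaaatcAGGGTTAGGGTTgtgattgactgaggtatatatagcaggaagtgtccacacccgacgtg
hht3-hhf3 (chrII:3529566-3529766, plus strand): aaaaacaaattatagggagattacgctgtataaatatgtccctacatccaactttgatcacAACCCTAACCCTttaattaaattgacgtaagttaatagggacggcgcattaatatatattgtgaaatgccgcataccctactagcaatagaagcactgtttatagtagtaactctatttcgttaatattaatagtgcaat
hta2 upstream (chrI:4053319-4053468, minus strand): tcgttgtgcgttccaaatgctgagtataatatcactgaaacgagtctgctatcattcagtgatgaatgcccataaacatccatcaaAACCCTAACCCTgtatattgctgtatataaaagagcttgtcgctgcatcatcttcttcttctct
pht1 upstream (chrII:1503445-1503594, minus strand): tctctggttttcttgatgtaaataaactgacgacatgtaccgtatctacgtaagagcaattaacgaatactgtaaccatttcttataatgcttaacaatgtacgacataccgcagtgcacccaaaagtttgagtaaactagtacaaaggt

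All 9 core histone genes had 2 copies of the box in direct succession, AACCCTAACCCT on one strand or the other, within 300 nt upstream of the annotated gene start, and *pht1* had no copy there. In each pair the same tandem box lies between both genes, so that it reads on the gene strand for one partner and on the opposite strand for the other. It began at position -59 for *htb1* and *hht2*, -64 for *hta2* and *hhf1*, -73 for *hht3*, -80 for *hht1*, -87 for *hhf2*, -130 for *hta1* and -140 for *hhf3*, with *hhf3* measured from its start codon because no 5′ UTR is annotated for it. Of 5112 protein-coding genes, 9.57% had at least 1 box in a window of that length on either strand and 0.391%, or 20 genes, had the tandem form. The other 11 of these 20 genes included the chaperone genes *ssa1*, *ssa2* and *hsp90* and the elongation factor gene *eft201*, named here after the match was seen. A match of letters is a description of the sequence, and no binding was measured.

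**Figure D1:**
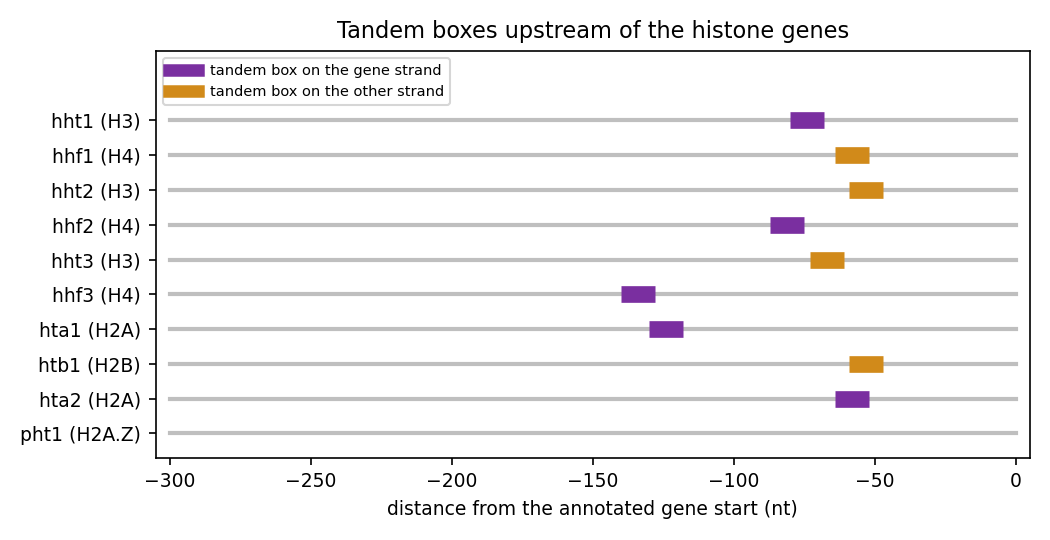
Position of the tandem box in the 300 nt upstream of each histone gene, as the distance in nt from the annotated gene start on the x axis, with 1 line per gene. Colours give the strand on which the box reads AACCCT, and the boxes begin between -140 (*hhf3*) and -59 (*htb1* and *hht2*), with none on the *pht1* line.

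The copies of H3 and of H4 encode the same protein but differ in their coding DNA, which decides whether reads can be told apart. The 3 H3 proteins were identical over 136 residues and the 3 H4 proteins over 103 residues, whereas the proteins of *hta1* and *hta2* differed at 3 of 132 aligned positions. H2A and *pht1* shared 52.9% to 53.6% of aligned residues. Of the 411 coding nt of H3, 61 differed between copies and 58 of these fell on the last base of a codon, and of the 312 coding nt of H4 all 37 differing positions were last bases. The first 75 coding bases of each copy show this, with capitals at the positions where the 3 copies are not all alike.
hht1 (chrI:4699829-4699903, plus strand): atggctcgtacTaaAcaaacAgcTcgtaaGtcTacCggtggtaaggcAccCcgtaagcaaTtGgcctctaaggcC
hht2 (chrII:1365158-1365232, plus strand): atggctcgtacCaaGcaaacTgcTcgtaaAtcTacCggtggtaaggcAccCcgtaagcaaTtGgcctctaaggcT
hht3 (chrII:3529455-3529529, minus strand): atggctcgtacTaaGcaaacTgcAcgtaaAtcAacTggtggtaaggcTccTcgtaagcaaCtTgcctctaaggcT
hhf1 (chrI:4699322-4699396, minus strand): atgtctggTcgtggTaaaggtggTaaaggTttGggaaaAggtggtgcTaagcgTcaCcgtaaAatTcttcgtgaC
hhf2 (chrII:1364749-1364823, minus strand): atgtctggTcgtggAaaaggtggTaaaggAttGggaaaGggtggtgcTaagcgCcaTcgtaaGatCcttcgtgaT
hhf3 (chrII:3529767-3529841, plus strand): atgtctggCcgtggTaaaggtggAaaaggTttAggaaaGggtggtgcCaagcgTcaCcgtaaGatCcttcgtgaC

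The longest stretch that 2 copies share ran to 55 nt, between *hhf2* and *hhf3*. Windows of 51 nt, the length of read 1 in total RNA, were unique in the genome at every position of 8 members, at 99.3% of positions in *hhf2* and at 99.1% in *hhf3*. Windows of 150 nt, the read length in the poly(A)+ libraries, were unique in every member. Windows of 35 nt, the length of read 2 in total RNA, were unique at 94.0% of positions or more.

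Core histone mRNAs were among the abundant transcripts in both fractions, and *pht1* was several fold lower. Levels are given as counts divided by annotated gene length (counts per nucleotide), and in these bulk samples fewer S phase cells and less RNA per cell cannot be told apart. The 9 core genes lay between 10.3 and 21.1 counts per nucleotide in total RNA, and between 8.14 and 34.0 in the poly(A)+ libraries. They stood between percentiles 94.1 and 97.6 of 5113 protein-coding genes in every library. *pht1* had 1.35 and 1.28 counts per nucleotide in total RNA, against 1.83 and 2.15 in the poly(A)+ libraries, at percentiles 68.6, 67.5, 82.0 and 81.3. The lowest core gene exceeded *pht1* by a factor of 8.28 and 8.07 in the total RNA libraries and by 4.45 and 4.94 in the poly(A)+ libraries.

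The H3 gene *hht2* had the highest mean level in both fractions, with 21.1 and 19.2 counts per nucleotide in total RNA, against 26.9 and 34.0 in the poly(A)+ libraries. In total RNA its range overlapped that of the next gene, *hht1*, and the ranges of *hht1*, *hhf1* and *htb1* overlapped in turn. The genes *hta2*, *hht3* and *hta1* followed, again with overlapping neighbours, and *hhf2* and *hhf3* overlapped at the low end. In poly(A)+ RNA *hht2* was separate from *hhf1*, *htb1* and *hht3*, whose neighbouring ranges overlapped, then came *hht1* with *hta2*, whose range also overlapped those of *htb1* and *hht3*, then *hhf3*, and last *hta1* with *hhf2*. The highest core gene stood 1.89 and 1.86 times above the lowest in total RNA and 3.31 and 3.21 times in poly(A)+ RNA. The distance from the highest to the lowest core gene was thus wider in both poly(A)+ libraries than in either total RNA library. In poly(A)+ RNA this distance is the ratio of *hht2* to *hhf2*, a pair taken up below.

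**Figure D2:**
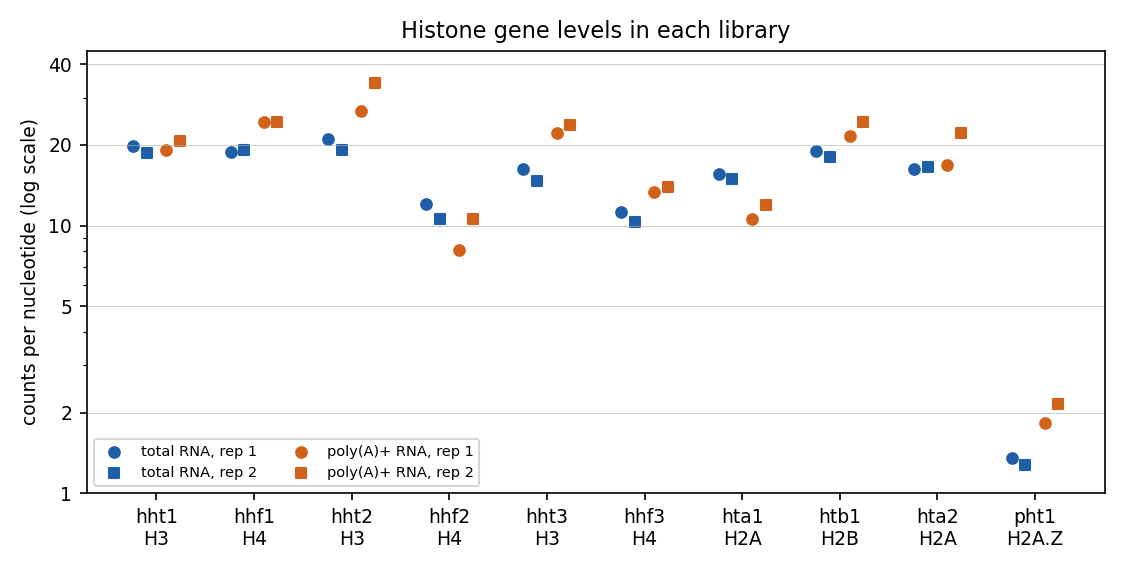
Counts per nucleotide (log scale) of the 10 histone genes in each of the 4 libraries; each point is 1 library. The 9 core genes lie between 8.14 and 34.0, all above the 1.28 to 2.15 of *pht1*, and *hta1* and *hhf2* are the lowest core genes in poly(A)+ RNA.

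Partners of a pair were then set against each other within each library, which needs no scaling between libraries. With 2 libraries against 2, the two-sided exact permutation test cannot give a p below 0.333, and each of the 8 ratios compared reached that value, so that Benjamini-Hochberg adjustment leaves 0.333. The ranges of the fractions overlapped for none of the 8 ratios. This was common across the genome: of 1212 pairs of neighbouring divergent protein-coding genes, the 4 histone pairs included, 80.5% had ratios that did not overlap between the fractions, and the median size of the log2 difference was 0.75. Non-overlap is thus not particular to the histone pairs. Of the 9 core genes, 7 overlap other annotated features on the opposite strand, whose part in these ratios was not tested, and the counts of those features are given further on.

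The pair *hht2*-*hhf2* showed the widest difference of the 4 histone pairs. *hht2* exceeded *hhf2* by a factor of 1.76 and 1.81 in total RNA, and by 3.31 and 3.21 in the poly(A)+ libraries. On the log2 scale this was 0.84 ± 0.03 against 1.70 ± 0.03 (SD, n = 2 each), so that the fractions differed by 0.87. That gap is many times the spread between replicates, and 43.3% of the 1212 divergent pairs differed by at least as much.

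For the H2A-H2B pair the level of *hta1* was 0.822 and 0.828 of *htb1* in total RNA, against 0.490 and 0.487 in the poly(A)+ libraries. The log2 ratio fell by 0.76 on the log2 scale, from -0.28 ± 0.01 to -1.03 ± 0.01 (SD, n = 2 each). Replicates of a fraction were nearly identical here, and *hta1* was below *htb1* in all 4 libraries. Of the divergent pairs, 48.9% differed by at least this amount.

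The remaining H3-H4 pairs differed less. *hht1* was at 1.05 and 0.972 of *hhf1* in total RNA, and at 0.786 and 0.844 in the poly(A)+ libraries, a log2 difference of -0.31. *hht3* was at 1.46 and 1.42 of *hhf3* in total RNA, and at 1.67 and 1.70 in the poly(A)+ libraries, a log2 difference of 0.23. At least as large a difference was seen in 77.7% of divergent pairs for *hht1*-*hhf1* and in 82.5% for *hht3*-*hhf3*. The 3 H3-H4 pairs did not shift alike: the H3 to H4 ratio was higher in poly(A)+ RNA for *hht2*-*hhf2* and *hht3*-*hhf3* and lower for *hht1*-*hhf1*.

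Summed over copies, H3 transcripts were 1.36 and 1.31 times those of H4 in total RNA and 1.49 and 1.60 times in poly(A)+ RNA. Summed H2A stood at 1.67 and 1.75 times H2B in total RNA and at 1.27 and 1.40 times in poly(A)+ RNA. The H2A.Z gene *pht1* reached 0.0424 and 0.0408 of summed H2A in total RNA, against 0.0666 and 0.0628 in the poly(A)+ libraries, a log2 difference of 0.64. Without poly(A)+ replicate 1, the log2 differences were -0.26 for *hht1* over *hhf1*, 0.84 for *hht2* over *hhf2*, 0.24 for *hht3* over *hhf3* and -0.76 for *hta1* over *htb1*. They were 0.26 for summed H3 over H4, -0.29 for summed H2A over H2B and 0.60 for *pht1* over H2A. Because the fractions did not overlap in any ratio, leaving out a library could not change a direction.

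**Figure D3:**
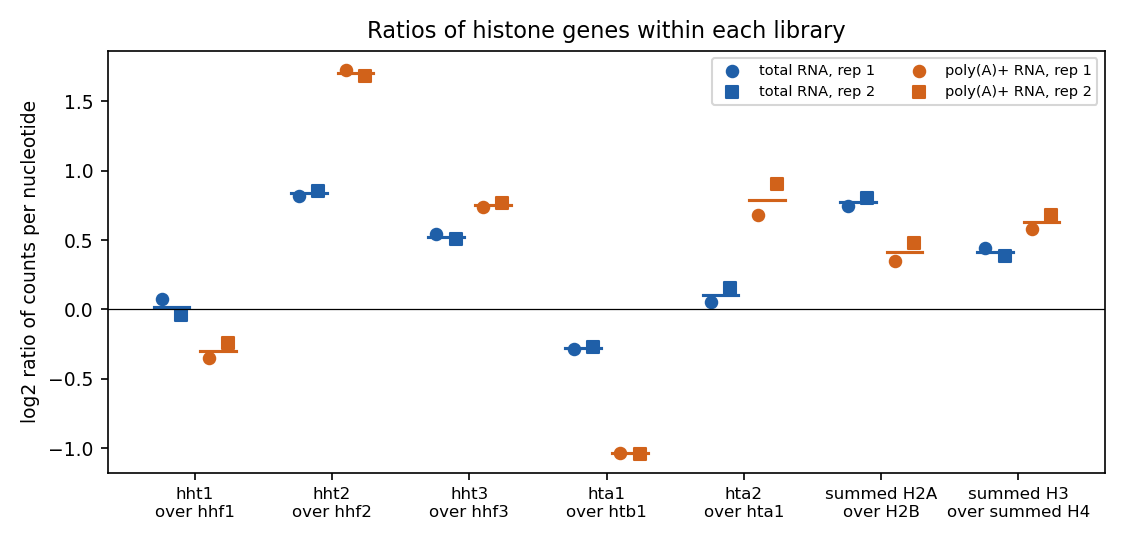
Log2 ratios of counts per nucleotide for pairs, copies and sums within each library; points are libraries and short lines are means of a fraction (n = 2). Fractions do not overlap in any ratio, and the widest gaps are in *hht2* over *hhf2* (0.84 against 1.70) and *hta1* over *htb1* (-0.28 against -1.03).

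The share that each copy held of a histone's transcripts also differed between the fractions. By counts per nucleotide, *hta2*, *hht2* and *hhf1* were the leading copies in all 4 libraries. That lead depends on the annotated gene lengths. As plain counts in total RNA, *hta1* (16229 and 15430) exceeded *hta2* (14162 and 14408). *hht1* (16373 and 15496) likewise exceeded *hht2* (14796 and 13416), while *hhf1* led H4. In poly(A)+ RNA the leaders were the same in plain counts. *hta1* made up 49.1% and 47.4% of H2A counts per nucleotide in total RNA, against 38.4% and 34.9% in the poly(A)+ libraries, with *hta2* holding the rest. The H2A copies were thus close to equal in total RNA and unequal in poly(A)+ RNA. The ratio of *hta2* to *hta1* was 1.04 and 1.11 in total RNA, against 1.60 and 1.87 in the poly(A)+ libraries. This log2 difference of 0.69 was below the median size of 0.75 among the 1212 divergent pairs, although these copies are not such a pair.

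Of H3 transcripts, *hht1* held 34.5% and 35.6% in total RNA, against 28.0% and 26.4% in the poly(A)+ libraries. *hht2* held 37.0% and 36.5%, then 39.5% and 43.4%, and *hht3* held 28.5% and 27.9%, then 32.6% and 30.2%. The fractions differed in opposite directions for *hht1* and for the other H3 copies. For H4, *hhf1* held 44.8% and 47.9% in total RNA, against 53.1% and 49.97% in the poly(A)+ libraries, *hhf2* held 28.6% and 26.4%, then 17.8% and 21.7%, and *hhf3* held 26.7% and 25.7%, then 29.1% and 28.4%. In poly(A)+ RNA *hhf2* was the smallest H4 copy, while within each total RNA library it was above *hhf3*, with ranges that overlapped. The shares of the copies of a histone sum to 100% and are not independent, and each exact permutation p was again 0.333, the smallest possible. Without poly(A)+ replicate 1, the difference in the share of *hht3* was 2.00 in place of 3.18 percentage points, and that of *hta1* was -13.4 in place of -11.6. The fractions did not overlap in any share, so leaving out a library could not change a direction. How common this is among copies of other genes was not computed. Of the 1212 divergent pairs, 80.5% had ratios that did not overlap.

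The question of how each gene differs between the fractions across libraries depends on how the libraries are scaled, and protein-coding genes took 85.9% and 86.4% of counts in total RNA but 69.3% in each poly(A)+ library. All 10 genes passed the filter on low counts. With edgeR's TMM factors over all features, 5 of the 10 members were called lower in poly(A)+ RNA, none was called higher (0 at an unadjusted p under 0.05), and 5 were not called. In that fit 35.5% of all 11234 tested features were called lower and 49.7% higher, and of 5008 protein-coding genes 72.4% were called lower and 7.89% higher. The count of members called lower was thus not above the share of protein-coding genes. With TMM factors from protein-coding genes alone, 8 members were called higher and 0 lower (0 also at an unadjusted p under 0.05), beside 26.5% of protein-coding genes called higher and 24.4% lower. DESeq2 with its own size factors called 0 members higher and 10 lower, beside 5.04% of protein-coding genes higher and 82.2% lower, and with those size factors in edgeR the shares were 5.15% and 84.7%. With library totals 7 members were higher and 1 lower, beside 18.2% of protein-coding genes higher and 33.5% lower. Without poly(A)+ replicate 1, the 5 members called lower with TMM over all features had log2 fold changes of -1.13 (*hta1*), -0.36 (*htb1*), -0.33 (*hta2*), -0.66 (*hht1*) and -0.86 (*hhf2*).

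A scale that depends less on this choice is the place of each gene relative to the median protein-coding gene, whose log2 fold change was -0.93 under the first scaling. Of the 10 members, 9 lay above that median, among them *hhf2* by only 0.0043 (SE of its log2 fold change 0.11). Without total RNA replicate 2, *hhf2* lay below it at -0.051. The median of the 10 was 0.62 above the median protein-coding gene, with a range over left-out libraries of 0.48 to 0.78. Values below are log2 fold changes of poly(A)+ over total RNA from edgeR with TMM over all features, with their SE and Benjamini-Hochberg adjusted p. The value relative to the median protein-coding gene follows each.

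The H2A gene *hta1* had 16229 and 15430 counts in the total RNA libraries and 10945 and 12370 counts in the poly(A)+ libraries. Both poly(A)+ libraries were below both total RNA libraries, as raw counts and after scaling. The log2 fold change was -1.09 (SE 0.12, adjusted p = 0.000235 by edgeR), or -0.16 relative to the median, which placed it at percentile 40.8 of protein-coding genes. It was the single member below the median.

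The H4 gene *hhf2* had 9545 and 8436 counts in the total RNA libraries and 6478 and 8446 counts in the poly(A)+ libraries. As raw counts the fractions overlapped, and after scaling they did not. Its log2 fold change was -0.93 (SE 0.11, adjusted p = 0.0003 by edgeR), which equals that of the median protein-coding gene. With protein-coding scaling *hta1* (-0.11) and *hhf2* (0.047) were the members not called.

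The H2B gene *htb1* had 25089 and 23690 counts in the total RNA libraries and 28411 and 32284 counts in the poly(A)+ libraries, the highest counts of the 10. Its log2 fold change of -0.33 (SE 0.11, adjusted p = 0.0307 by edgeR) stood 0.60 above the median. The other H2A gene, *hta2*, had 14162 and 14408 counts in the total RNA libraries and 14746 and 19421 counts in the poly(A)+ libraries. At -0.40 (SE 0.10, adjusted p = 0.00977 by edgeR) it stood 0.53 above the median. Raw counts of both genes were higher in poly(A)+ RNA and TMM-scaled values lower, which shows how far the call rests on the scaling.

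The H3 gene *hht1* had 16373 and 15496 counts in the total RNA libraries and 15822 and 17134 counts in the poly(A)+ libraries, which overlap. Its log2 fold change was -0.59 (SE 0.13, adjusted p = 0.00507 by edgeR), 0.34 above the median. It was the lowest of the H3 copies relative to the median.

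The H3 genes *hht2* and *hht3* were not called in this fit. *hht2* had 14796 and 13416 counts in the total RNA libraries and 18837 and 23809 counts in the poly(A)+ libraries, with a log2 fold change of -0.060 (SE 0.10), 0.87 above the median. *hht3* had 12481 and 11225, then 17013 and 18121 counts, with -0.071 (SE 0.13), 0.86 above the median. Scaled values of the fractions overlapped for both genes.

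The H4 genes *hhf1* and *hhf3* were likewise not called. *hhf1* had 15541 and 15899 counts in the total RNA libraries and 20088 and 20244 counts in the poly(A)+ libraries, with a log2 fold change of -0.28 (SE 0.15, adjusted p = 0.134 by edgeR), 0.66 above the median. *hhf3* had 6962 and 6418, then 8287 and 8646 counts, with -0.30 (SE 0.14, adjusted p = 0.0974 by edgeR), 0.63 above the median. The order within the pairs differed, with *hht1* below *hhf1* and *hht3* above *hhf3*.

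H2A.Z (*pht1*) had 1678 and 1588 counts in the total RNA libraries and 2270 and 2666 counts in the poly(A)+ libraries. Its log2 fold change was -0.054 (SE 0.13, adjusted p = 0.71 by edgeR), 0.88 above the median and the highest of the 10, at percentile 84.7 of protein-coding genes. The variant thus lay beside *hht2* and *hht3* and apart from *hta1*.

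**Figure D4:**
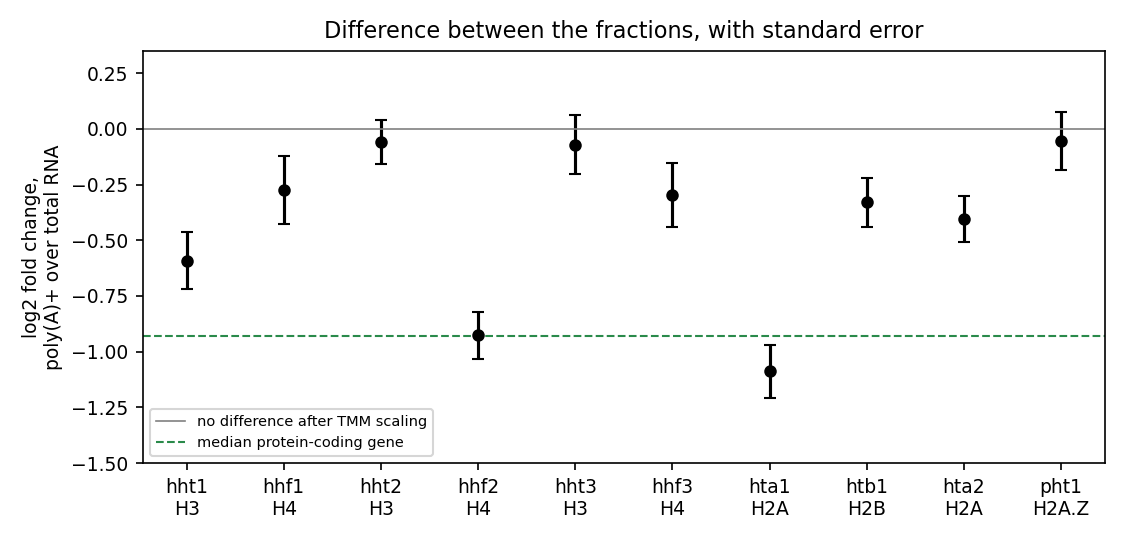
Log2 fold change of poly(A)+ over total RNA for each histone gene (points, edgeR with TMM over all features; bars, SE; n = 2 per fraction). The dashed line is the median protein-coding gene at -0.93; *hta1* at -1.09 lies below it, *hhf2* on it and the other 8 genes above it, while all 10 fold changes are below 0, whereas under protein-coding scaling 9 of them are above 0.

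The 10 genes together took 0.505% and 0.502% of protein-coding counts in total RNA, with 95% Wilson intervals of 0.502% to 0.508% and 0.499% to 0.505%. In poly(A)+ RNA they took 0.808% and 0.776%, with intervals of 0.804% to 0.812% and 0.772% to 0.780%. These intervals cover counting error only. The share was 0.289 percentage points higher in poly(A)+ RNA, in 2 of 2 libraries (exact permutation p = 0.333, the smallest possible), and was 0.115 percentage points higher as a share of all counts and 0.272 without poly(A)+ replicate 1.

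Opposite-strand features overlapped most histone genes and behaved differently in the fractions. In total RNA, which came from directional libraries, 7 lncRNAs annotated opposite the members had between 7 and 118 counts, never more than 0.779% of the member's counts. In poly(A)+ RNA the same lncRNAs had between 2121 and 13073 counts. SPNCRNA.1194, which spans all of *hta1* on the other strand, had 114 and 118 counts in the total RNA libraries and 10996 and 13073 counts in the poly(A)+ libraries, or 100% and 106% of the counts of *hta1*.

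SPNCRNA.5147, which covers *hhf2* in full, went from 58 and 59 counts in total RNA to 6935 and 9424 in poly(A)+ RNA, or 107% and 112% of the counts of *hhf2*. SPNCRNA.1611, which covers *hhf3*, went from 44 and 50 to 8578 and 8891 counts, 104% and 103% of *hhf3*. Opposite *pht1*, SPNCRNA.5214 went from 12 and 7 to 2121 and 2383 counts. The lncRNAs opposite *hht1* (SPNCRNA.4110), *hta2* (SPNCRNA.3808) and *htb1* (SPNCRNA.7358) overlap part of their gene and had between 15.2% and 68.9% of its counts in poly(A)+ RNA. Counting options for strand and for overlapping features are not given in the sources used here, so reads of a histone gene and of a feature opposite it cannot be told apart in the poly(A)+ libraries.

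*hta1*, *hhf2* and *hhf3* are the members covered in full by an opposite lncRNA. They stood at -0.16, 0.0043 and 0.63 relative to the median protein-coding gene. The part of such coverage in these values was not tested. Protein-coding neighbours overlap at gene ends only. The exocyst gene *sec5*, which overlaps 258 nt of *htb1*, had 6.23% and 6.79% of the counts of *htb1* in total RNA, against 19.9% and 21.6% in the poly(A)+ libraries. *rav1*, which overlaps 46 nt of *hht3*, had 20.8% and 23.1%, then 14.4% and 13.9%. The lncRNA SPNCRNA.1432, on the strand of *hhf2* and overlapping 79 nt of it, had 3.92% and 3.90% of its counts, then 1.76% and 2.31%, and SPNCRNA.1194 also overlaps *htb1* by 6 nt on its own strand. *hhf1* and *hht2* overlap no other feature. Adding opposite-strand counts to each gene in total RNA, scaled by the overlap, left 8 members called higher and 0 lower, beside 18.6% of protein-coding genes called higher and 25.3% lower, and the median protein-coding log2 fold change in that fit was -0.013.

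**Figure D5:**
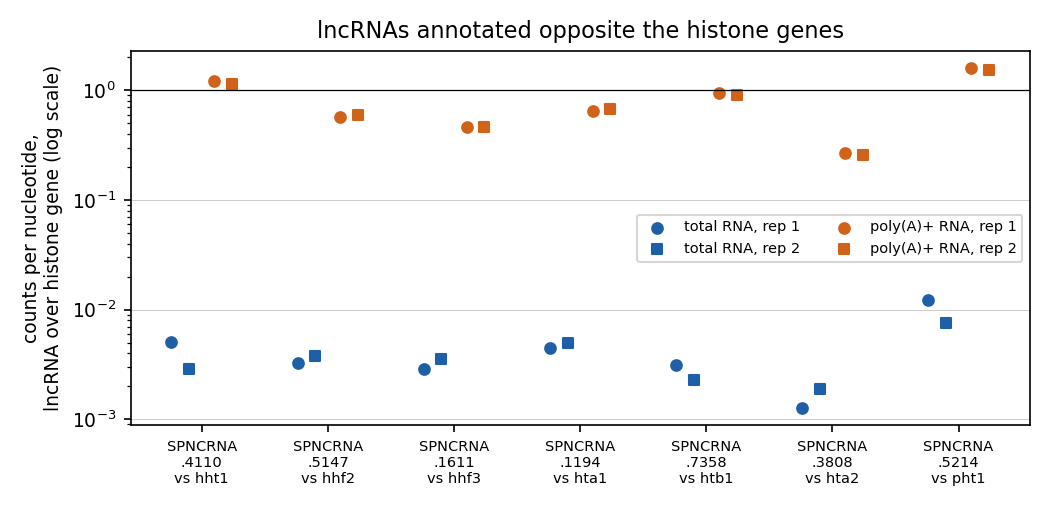
Counts per nucleotide of each lncRNA annotated opposite a histone gene, divided by those of that gene (log scale), in each of the 4 libraries. Ratios lie at 0.0123 or below in total RNA and at 0.256 or above in poly(A)+ RNA.

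Related genes were read from 6 short lists in the same edgeR fit, and none of their members was called higher with TMM over all features. The share to set beside each list is that of all protein-coding genes, 72.4% lower and 7.89% higher in this fit. With protein-coding scaling that share was 24.4% lower and 26.5% higher. Of the 6 genes of histone promoter control and HIRA, 6 were called lower, with a median log2 fold change of -1.38, or -0.45 relative to the median protein-coding gene. *ams2*, the promoter factor, had the highest value of that list at -0.72 (SE 0.18), and the HIRA gene *hip3* the lowest at -2.80 (SE 0.14). With protein-coding scaling, 3 of the 6 were called lower and 0 higher. *ams2* stood 0.21 above the median protein-coding gene and the other 5 genes of the list stood below it. Of the 10 histone genes 9 stood above it, *hhf2* by only 0.0043. The genes compared differ in length, and the part of gene length in these values was not tested.

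All 10 core histone chaperone genes were called lower, beside 72.4% of protein-coding genes. Their median was -1.01, or only -0.08 relative to the median protein-coding gene. They ran from *cia1*, the Asf1 chaperone of H3-H4, at -0.56 (SE 0.18) to *spt6*, a chaperone of transcribed chromatin, at -2.61 (SE 0.15), and 3 were called lower and 0 higher with protein-coding scaling. Of 13 SWR1 and H2A.Z partner genes, 9 were called lower and 4 were not called, from *swc2* at 0.41 (SE 0.24, adjusted p = 0.157) to *msc1* at -1.96 (SE 0.24), and with protein-coding scaling 3 were called higher and 2 lower. Their median of -0.74 stood 0.20 above that of protein-coding genes, against 0.88 for *pht1*.

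For the centromeric H3 variant CENP-A and its loading factors, 4 of 5 genes were called lower, from the chaperone gene *scm3* at -0.54 (SE 0.23, adjusted p = 0.0633) to *mis18* at -1.30 (SE 0.37), and none was called in either direction with protein-coding scaling. Of 7 G1/S genes of the MBF regulon, which like histone genes are transcribed around the start of S phase, 4 were called lower. They ran from the licensing gene *cdc18* at -0.052 (SE 0.20, adjusted p = 0.81) to the ribonucleotide reductase gene *suc22* at -1.95 (SE 0.11), and with protein-coding scaling 3 were higher and 1 lower. Of the 5 meiosis genes 4 were called lower, from *mcp5* at -0.33 (SE 0.28, adjusted p = 0.304) to the cohesin gene *rec8* at -2.69 (SE 0.37), and 2 were lower with protein-coding scaling.

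The genes whose profile lay nearest the mean of the 9 core histone genes were found by Euclidean distance over the 4 libraries, on log2 normalized counts per kilobase, among 4998 protein-coding genes. They were the 14-3-3 gene *rad24* at a distance of 0.15, the ribosomal protein gene *rps2401* at 0.23 and the mitochondrial chaperonin gene *hsp10* at 0.29. Nearest *pht1* were *toa2*, a TFIIA subunit gene, and *rpc11*, an RNA polymerase III subunit gene, both at 0.22, and SPBC3H7.04 at 0.24. Such a distance takes in the level of a gene as well as its difference between the fractions.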

How the data were processed

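RNA was sequenced from 2 total, ribo-depleted and 2 poly(A)+ libraries. Per the labels, total RNA libraries were directional (TruSeq Stranded kit), and the poly(A)+ libraries came from another kit. The submitters' processing notes name bcl2fastq 2.18.12 and 2.20, cutadapt 1.15, fastp 0.23.1, STAR 2.6.1d and featureCounts of Subread 2.0.6. The genome build and the counting options are not given in the sources used here. The authors deposited raw read counts for 12684 features with no normalization. The header of each table has 9 cells over 8 fields, so fields were read by position. Identifiers of 99.4% of features matched RefSeq ASM294v3, from which sequences were read.

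Differences between total and poly(A)+ libraries were fitted in edgeR 4.0.16 under R 4.3.3 (TMM, filterByExpr, glmQLFit, glmQLFTest, Benjamini-Hochberg over all 11234 tested features, threshold 0.05); the script was tested on simulated data. Ratios and shares used counts per nucleotide of the annotated gene, with two-sided exact permutation tests enumerated in Python 3.11.15. Pair ratios were set beside those of all neighbouring divergent protein-coding genes that were tested, did not overlap and had counts in every library. Libraries held 25530272 to 30650533 counts, and shares have Wilson intervals at 95%. Alternatives were DESeq2 1.42.0 and its size factors, library totals, TMM factors of protein-coding genes, a replicate block, each library left out, 2 other count filters (any count, or a mean of 50), a log2 fold change of at least 1, opposite-strand counts added in total RNA, a correction for unique sequence, and, for ratios and shares, plain counts and exon length. Genes named are the 10 members, the highest and lowest of each list, the 3 nearest to the core mean and to *pht1*, and features overlapping a member. *ssa1*, *ssa2*, *hsp90* and *eft201* were named after their values or matches were seen. The members and lists were chosen with earlier results of these data known. No source beyond the labels' term biological replicate says that cultures were separate.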

Additional observations from a re-analysis of the deposited data

How the results depend on the processing

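The direction of single genes between the fractions depended on scaling. Of protein-coding genes, 18.2% were called higher and 33.5% lower with library totals. The shares were 26.5% and 24.4% with TMM factors of protein-coding genes, and 18.6% and 25.3% with opposite-strand counts added in total RNA. With library totals, 7 members were called higher and 1 lower in poly(A)+ RNA, with log2 fold changes of 0.41 (*htb1*), 0.35 (*hta2*), 0.15 (*hht1*), 0.46 (*hhf1*), 0.69 (*hht2*), 0.67 (*hht3*), 0.44 (*hhf3*) and 0.69 (*pht1*); *hht1* was not called, *hta1* (-0.34) was the member called lower and *hhf2* (-0.18) was not called. With TMM factors of protein-coding genes, 8 were higher and 0 lower, with -0.11 (*hta1*), 0.64 (*htb1*), 0.57 (*hta2*), 0.38 (*hht1*), 0.70 (*hhf1*), 0.92 (*hht2*), 0.047 (*hhf2*), 0.90 (*hht3*), 0.68 (*hhf3*) and 0.92 (*pht1*). With opposite-strand counts added in total RNA, 8 were higher and 0 lower, with 0.015 (*hta1*), 0.77 (*htb1*), 0.70 (*hta2*), 0.51 (*hht1*), 0.83 (*hhf1*), 1.05 (*hht2*), 0.18 (*hhf2*), 1.03 (*hht3*), 0.81 (*hhf3*) and 1.05 (*pht1*). DESeq2 size factors in edgeR and DESeq2 itself each called 10 lower, beside 84.7% and 82.2% of protein-coding genes. A log2 fold change of at least 1 left 1 lower, and the share of all genes was not computed at that cut.

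Where a library was left out, only effect sizes are given, because a lone library was assumed to vary like the other fraction. The log2 fold change then ranged from -0.16 to 0.058 for *hht3* and from -0.062 to 0.012 for *pht1*. The median relative to the median protein-coding gene was 0.48 to 0.80 over 13 alternatives. Subtracting that median nearly removes the scaling, so the alternatives of scaling could hardly change it. Each ratio and copy share kept its sign in all 7 of its own alternatives. Where the fractions do not overlap, leaving out a library cannot reverse a sign, and gene length cancels in the difference for single genes. Whether replicate numbers pair the libraries is not stated. Deviations of replicate 1 were uncorrelated between fractions over genes (r = -0.0175), which cannot settle this because the spread between replicates differed between the fractions. With the replicate block 5 members were lower and 0 higher, and the share of all genes was not computed in that fit. With 2 libraries per fraction, no exact permutation test of a ratio or share can pass the threshold, and the chi-square of counts between replicates per degree of freedom was 8.6 in total and 114 in poly(A)+ RNA.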
